A study of Mus musculus with 6 samples.

Results

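The 10 genes described here encode the receptors, ligands, transcription factor and fusion proteins through which a myeloid precursor becomes an osteoclast, the cell that resorbs bone. They were chosen by symbol (Tnfsf11, Tnfrsf11b, Csf1, Tnfrsf11a, Csf1r, Calcr, Oscar, Nfatc1, Dcstamp and Ocstamp), and all 10 were found among the 23930 amplicons of the deposited table. The study compared E16.5 mouse humerus shafts from 3 knockout samples (Prrx1Cre; Stat3C/C) and 3 control samples, which the labels call wild type although their genotype is given as Stat3C/+, with no Cre named. The labels do not describe the Stat3C allele, of which the controls carry a single copy. Because of that copy and of the Cre, the groups differ in more than the loss of Stat3, and these parts cannot be told apart. Prrx1Cre is a driver of limb bud mesenchyme, the source of bone and cartilage cells, whereas osteoclasts descend from blood-forming cells. Each gene is read at a single short target, so a value reports that target, and values of different genes are not compared as levels.

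Osteoclast formation needs CSF1 (M-CSF), which keeps precursors alive through its receptor CSF1R, and RANKL, the product of Tnfsf11, which acts on the receptor RANK, the product of Tnfrsf11a. Both ligands come largely from mesenchymal cells of bone and cartilage. Osteoprotegerin, encoded by Tnfrsf11b, is a soluble decoy that binds RANKL. RANK signalling, helped by ITAM-coupled receptors such as OSCAR, induces the transcription factor NFATc1, whose known targets include the fusion proteins DC-STAMP and OC-STAMP and the calcitonin receptor, encoded by Calcr.

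The genes that moved furthest in each direction were Calcr (lower) and Tnfsf11 (higher), and Tnfrsf11a rose beside its ligand. The 250 bases before the start of these genes are shown because the targeted gene encodes a DNA-binding factor. They come from RefSeq on GRCm38.p6, and Calcr has a pair of annotated starts. Capitals mark the NFAT core GGAAA on either strand.
Tnfsf11, chr14:78308044-78308293, minus strand: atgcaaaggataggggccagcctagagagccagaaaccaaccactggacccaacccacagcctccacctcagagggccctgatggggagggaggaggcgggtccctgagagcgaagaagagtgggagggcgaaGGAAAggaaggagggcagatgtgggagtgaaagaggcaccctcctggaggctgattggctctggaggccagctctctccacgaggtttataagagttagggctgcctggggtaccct
Tnfrsf11a, chr1:105780473-105780722, plus strand: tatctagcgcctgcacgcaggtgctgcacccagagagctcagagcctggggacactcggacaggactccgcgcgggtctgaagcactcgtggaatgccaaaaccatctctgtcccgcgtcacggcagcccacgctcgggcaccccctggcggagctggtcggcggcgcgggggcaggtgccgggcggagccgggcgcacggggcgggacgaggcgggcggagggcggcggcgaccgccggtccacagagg
Calcr, first start, chr6:3763624-3763873, minus strand: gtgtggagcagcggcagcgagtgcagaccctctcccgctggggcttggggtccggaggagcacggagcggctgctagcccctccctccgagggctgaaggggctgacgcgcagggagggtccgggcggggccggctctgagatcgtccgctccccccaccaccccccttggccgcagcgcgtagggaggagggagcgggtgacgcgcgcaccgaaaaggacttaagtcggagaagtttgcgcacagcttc
Calcr, second start, chr6:3764714-3764963, minus strand: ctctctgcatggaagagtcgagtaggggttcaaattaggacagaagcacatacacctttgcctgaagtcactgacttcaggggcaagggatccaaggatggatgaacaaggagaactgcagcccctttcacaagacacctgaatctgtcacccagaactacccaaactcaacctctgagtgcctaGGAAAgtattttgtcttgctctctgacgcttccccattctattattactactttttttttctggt
Promoters of 5 of the 10 genes, with 6 entries, were present in the sequence table. None of the 6 entries held the STAT palindrome TTCNNNGAA or the AP-1 motif TGANTCA, which occurred in 7.02% and 6.75% of all 32851 promoter windows of this length. The core GGAAA, searched on both strands, was present in 4 of the 6 entries and in 55.6% of all windows. In the Tnfsf11 window it began 117 bases before the start, and in the second Calcr window 65 bases before it. The Tnfrsf11a window and the first Calcr window held none. Enhancers farther away, through which Tnfsf11 is known to be regulated, lie outside these windows.

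Depth ranged from 9126493 to 13376550 reads per library, recovered from the steps of the deposited RPM values (reads scaled to a common library total). The Stat3 amplicon was at 193 ± 20.1 RPM in knockouts and 208 ± 5.82 RPM in controls (SD, n = 3 each), and was not called (limma, log2 fold change -0.11, adjusted p = 0.380). The sources used here do not place this amplicon against the deletion, and its level therefore says nothing of the labels. Markers of the labelled tissue were abundant, with Col1a1 at 27669 ± 2574 RPM in knockouts and 28711 ± 2067 RPM in controls. Muscle was present as well, with Acta1 at 3424 ± 253 RPM in knockouts and 3746 ± 163 RPM in controls.

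Of the 10 genes, 4 were called at a limma adjusted p under 0.05, 2 higher and 2 lower in the knockout. Among all 12846 amplicons tested, 16.7% were called, 5.71% higher and 11.0% lower. The higher share of all calls was 34.2% with the deposited scaling and 50.4%, 54.4%, 53.3% and 56.3% with TMM factors, median-of-ratios factors, edgeR and DESeq2, which left the direction of each of the 10 genes as it was. All 10 passed the filter of a mean of 1 RPM. The 2 groups did not overlap for 6 of the 10 genes, against 33.8% of all tested amplicons. These genes were listed with earlier results of the data known, so their shares are a description.

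**Figure D1:**
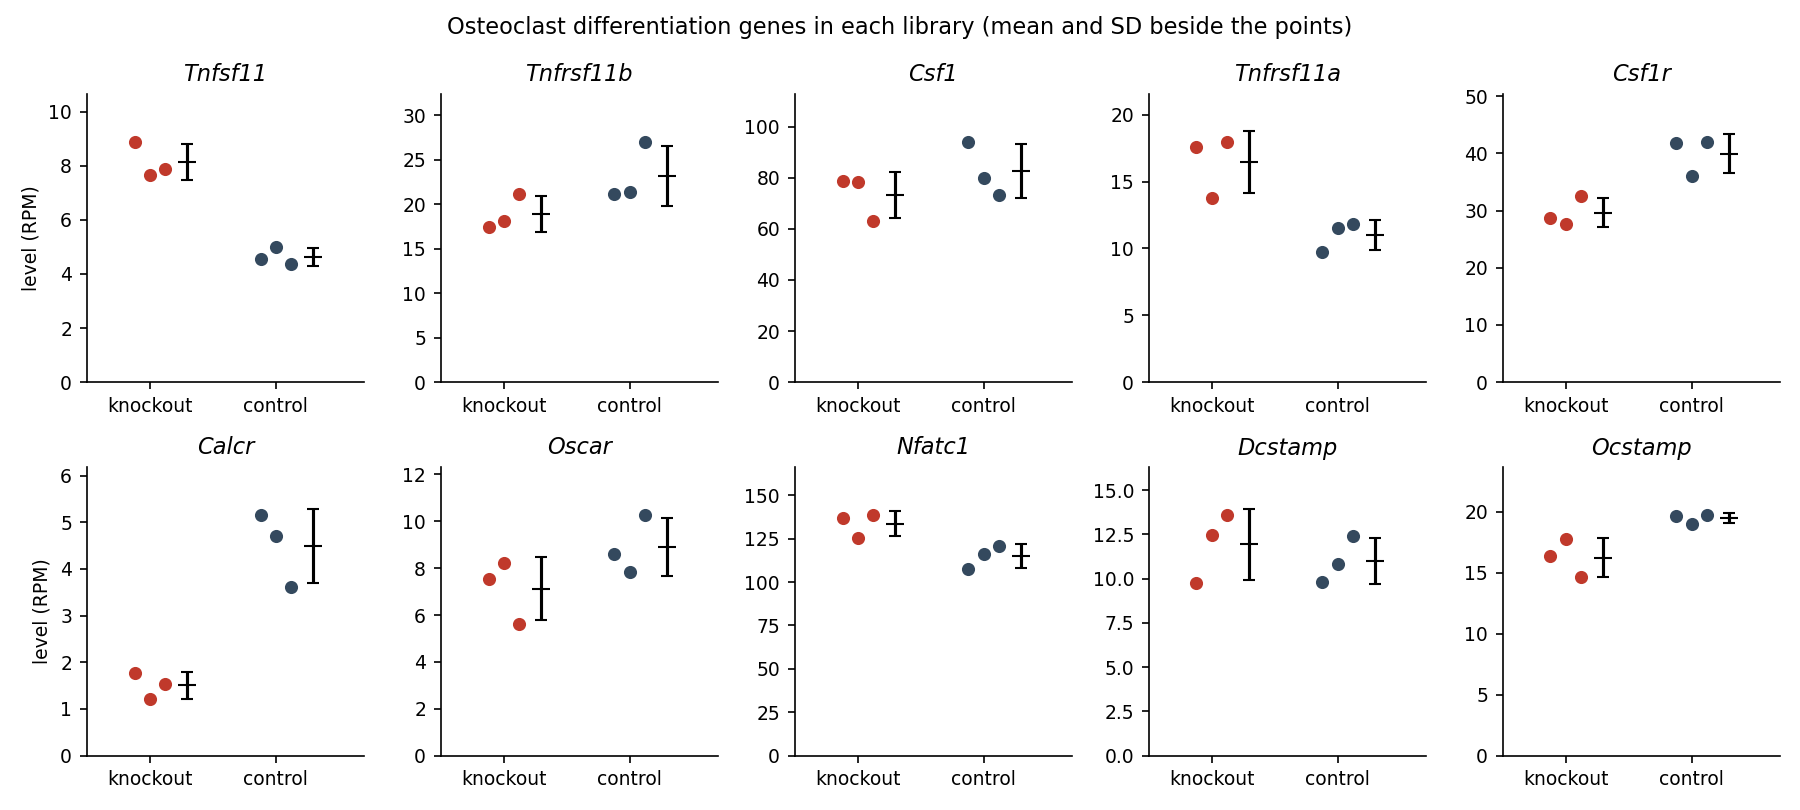
Level of each of the 10 genes, in RPM on a separate vertical axis from 0 for each gene, in the 3 knockout (red) and 3 control (dark) libraries, with the mean and SD beside the points. The groups stand apart for Tnfsf11, Tnfrsf11a, Csf1r, Calcr, Nfatc1 and Ocstamp, and overlap for Tnfrsf11b, Csf1, Oscar and Dcstamp.

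Among the ligands and the decoy, Tnfsf11 rose while Csf1 and Tnfrsf11b were not called. Tnfsf11 (amplicon AMPLTnfsf11_2_1.16137, gene on chromosome 14 from 78277445 to 78308043, GRCm38) was at 8.89, 7.67 and 7.87 RPM in knockouts and at 4.55, 5.01 and 4.35 RPM in controls. Every knockout library lay above every control library. The means were 8.14 ± 0.655 and 4.64 ± 0.336 RPM (SD, n = 3 each), so the knockout stood at 176% of the control. The log2 fold change was 0.70 ± 0.16 (SE; limma, adjusted p = 0.00460). These values rest on 70 to 105 reads in knockout libraries and 53 to 67 in control libraries. Tnfsf11 was called under all 16 alternatives.

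Tnfrsf11b (chromosome 15, 54250619 to 54278484) was at 17.4, 18.1 and 21.2 RPM in knockouts and at 21.1, 21.3 and 27.0 RPM in controls. Knockout replicate 3 lay just above control replicate 1, so the groups overlapped. The log2 fold change was -0.28 ± 0.13 (SE; limma, adjusted p = 0.140), with a 95% interval of -0.54 to -0.01 before adjustment. Csf1 (chromosome 3, 107741048 to 107760469) was at 78.8, 78.2 and 63.0 RPM in knockouts and at 94.2, 80.0 and 73.4 RPM in controls. The groups overlapped here too, and the log2 fold change was -0.17 ± 0.10 (SE; limma, adjusted p = 0.287). Its 95% interval, -0.38 to 0.05, leaves room for a fall of that size or for a small rise.

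The balance of RANKL to its decoy was compared as the ratio of their RPM within each library, which does not depend on how libraries are scaled. The Tnfsf11 to Tnfrsf11b ratio was 0.510, 0.424 and 0.372 in knockouts and 0.215, 0.235 and 0.161 in controls. The lowest knockout ratio lay above the highest control ratio. The log2 ratio was higher by 1.10 ± 0.21 (SE), a 2.14-fold difference of geometric means. By an exact permutation test, two-sided, the p was 0.1, the smallest that 3 against 3 can give, and 0.2 after adjustment over the 8 ratios compared. With each library left out in turn the difference ranged from 0.94 to 1.21. Because the 2 amplicons may amplify unequally, the ratio itself is not a ratio of transcripts, and only its difference between groups can be read. The Csf1 to Csf1r ratio was 2.74, 2.83 and 1.94 in knockouts and 2.26, 2.22 and 1.75 in controls, with overlapping groups (exact permutation p = 0.3).

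**Figure D2:**
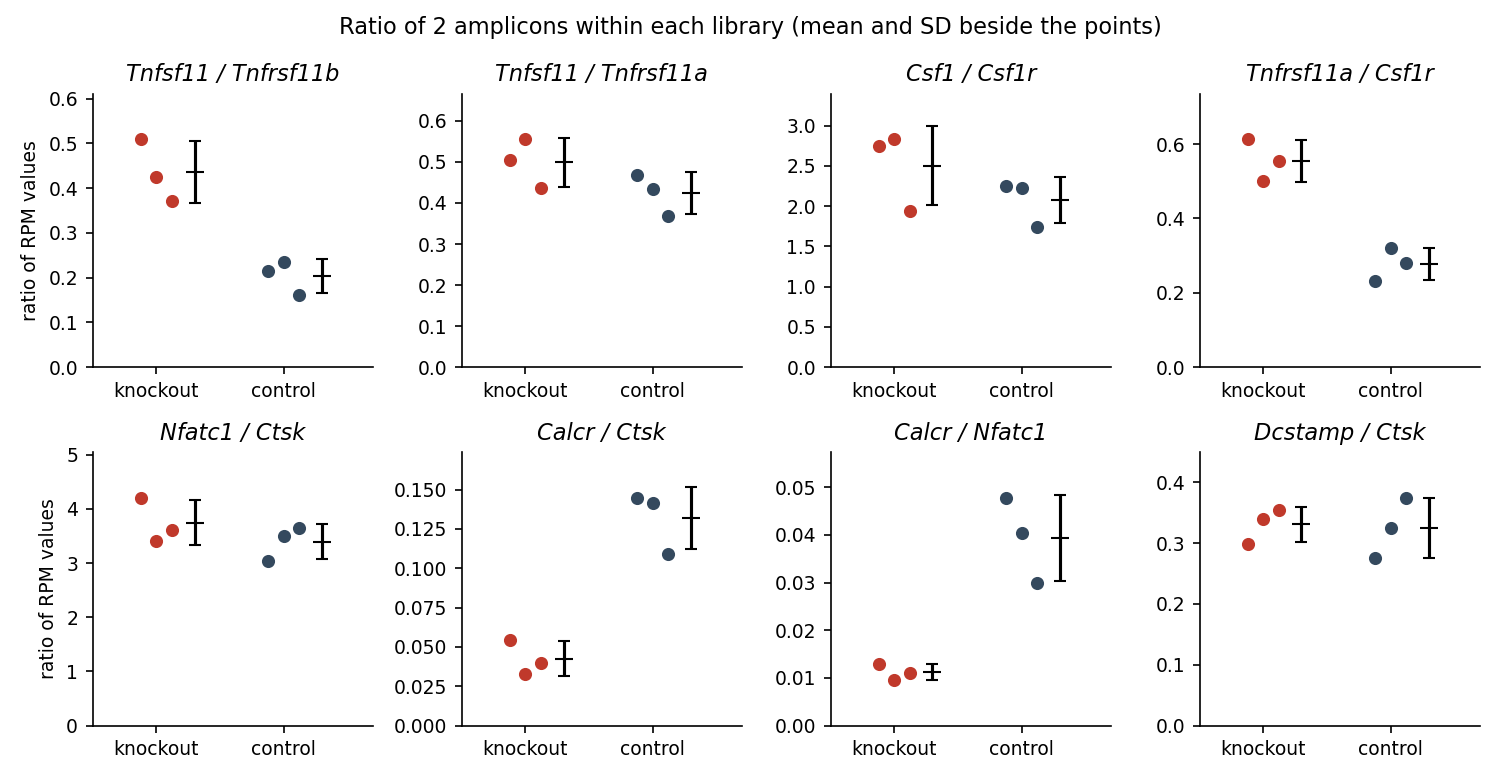
Ratio of the RPM values of 2 amplicons within each library, on a vertical axis from 0 for each pair, in 3 knockout (red) and 3 control (dark) libraries with mean and SD. The groups do not overlap for Tnfsf11 to Tnfrsf11b, Tnfrsf11a to Csf1r, Calcr to Ctsk and Calcr to Nfatc1, and overlap for the other 4 pairs.

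The receptors that commit a precursor moved in opposite directions: Tnfrsf11a rose and Csf1r fell. Tnfrsf11a (AMPLTnfrsf11a_4_1.7020, chromosome 1, 105780718 to 105847981) was at 17.6, 13.8 and 17.99 RPM in knockouts and at 9.71, 11.5 and 11.8 RPM in controls. Its lowest knockout library stood above the highest control, so the groups did not overlap. The means were 16.47 ± 2.31 and 11.02 ± 1.14 RPM (SD, n = 3 each), and the log2 fold change was 0.54 ± 0.14 (SE; limma, adjusted p = 0.0116). The adjusted p was 0.0636 without control replicate 1, the lowest control, and 0.0524 with no filter on low values.

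Csf1r (AMPLCsf1r_5_1.5544, chromosome 18, 61100598 to 61132149) was at 28.7, 27.6 and 32.5 RPM in knockouts and at 41.8, 36.0 and 42.1 RPM in controls. All knockout libraries lay below all controls. The means were 29.6 ± 2.57 and 39.9 ± 3.43 RPM, and the log2 fold change was -0.42 ± 0.11 (SE; limma, adjusted p = 0.0108). The adjusted p was 0.0506 without control replicate 1, 0.0600 without knockout replicate 2 and 0.0513 without the variance trend. In bulk tissue, fewer cells of a type and less RNA per cell cannot be told apart.

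The Tnfrsf11a to Csf1r ratio was 0.614, 0.50 and 0.553 in knockouts and 0.233, 0.320 and 0.281 in controls. It differed by 1.01 ± 0.16 (SE) on the log2 scale, a 2.01-fold difference without overlap (exact permutation p = 0.1, adjusted over the ratios 0.2). The Tnfsf11 to Tnfrsf11a ratio, ligand to receptor, was 0.505, 0.556 and 0.438 in knockouts and 0.469, 0.435 and 0.368 in controls. These overlapped, with a log2 difference of 0.24 ± 0.14 (SE; exact permutation p = 0.2).

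Other macrophage-lineage genes are set beside Csf1r. Of 16 markers of macrophages and monocytes in the table, 14 were tested, 5 were higher and 0 lower, with a median log2 fold change of 0.06 against -0.06 for all genes tested. Their summed level was 621 to 649 RPM in knockouts and 506 to 528 RPM in controls. The lysozyme gene Lyz2 was at 230.3 ± 6.91 RPM in knockouts and 134 ± 14.5 RPM in controls (limma, log2 fold change 0.78), and the lysosomal glycoprotein gene Cd68 at 124.9 ± 2.52 RPM in knockouts and 89.7 ± 7.18 RPM in controls (0.48). The other higher genes were Cd14 (1.47), Adgre1 (0.49) and Itgam (0.41). Another 6 tested markers had negative log2 fold changes, as Csf1r did, and were not called: Fcgr1 (-0.36), C1qb (-0.28), C1qc (-0.27), Fcgr3 (-0.27), Mrc1 (-0.27) and Ly86 (-0.18). Of these, the groups did not overlap for the mannose receptor gene Mrc1, at 71.7 ± 5.52 RPM in knockouts and 86.6 ± 10.1 RPM in controls, or for the Fc receptor genes Fcgr1 and Fcgr3 (limma, adjusted p of 0.0612, 0.0868 and 0.0935). Lyz2 and Cd68 had the largest RPM of the list and weigh most in its sum. C1qa had at most 1 read in any library. Neutrophil markers summed to 39.7 to 44.3 RPM in knockouts and 93.6 to 95.8 RPM in controls, with all 6 tested members lower of 9 in the table. The part these cells play in the values of Csf1r was not tested.

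Calcr, the receptor for the hormone calcitonin, which halts resorption, showed the greatest fall of the 10 genes. Calcr (AMPLCalcr_4_1.8755, chromosome 6, 3685680 to 3764714) was at 1.78, 1.21 and 1.53 RPM in knockouts and at 5.15, 4.71 and 3.61 RPM in controls. The highest knockout value was under the lowest control. The means were 1.51 ± 0.288 and 4.49 ± 0.793 RPM (SD, n = 3 each), so the knockout stood at 33.5% of the control. The log2 fold change was -1.13 ± 0.20 (SE; limma, adjusted p = 0.000526). The counts were low, with 21, 11 and 15 reads in knockout libraries and 60, 63 and 44 in control libraries.

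Since 1 RPM is near this gene's level, the pseudocount shrinks its fold change. On the recovered reads the log2 fold change of Calcr was -1.50 with edgeR (adjusted p = 0.000826), and with a pseudocount of 10 RPM it was -0.33. That pseudocount also brought Tnfsf11 to 0.31 and Tnfrsf11a to 0.33. Calcr was called in each of the 15 alternatives in which it was tested, with a limma, edgeR or DESeq2 adjusted p of at most 0.00842. The filter at a mean of 5 RPM removed it.

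Calcr was also set against Ctsk and Nfatc1, both known for their roles in osteoclasts; which cells gave these reads in bulk tissue was not tested. The Calcr to Ctsk ratio, where Ctsk encodes the collagen-degrading protease cathepsin K, was 0.0545, 0.0327 and 0.0400 in knockouts and 0.145, 0.141 and 0.109 in controls. It fell by 1.66 ± 0.25 (SE) on the log2 scale. The Calcr to Nfatc1 ratio was 0.0130, 0.00960 and 0.0111 in knockouts and 0.0478, 0.0404 and 0.0299 in controls, a log2 difference of -1.80 ± 0.23 (SE). Neither ratio overlapped between groups, and both had an exact permutation p = 0.1 (0.2 adjusted). Ctsk itself was at 32.6, 36.8 and 38.3 RPM in knockouts and 35.6, 33.3 and 33.1 RPM in controls, with overlapping groups and no call (limma, log2 fold change 0.07, adjusted p = 0.676).

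Among the partners of the calcitonin receptor, none of 7 tested genes was called (limma; adjusted p of 0.0518 at the lowest, for Crcp). The RAMP proteins, which alter the ligand preference of this receptor family, gave log2 fold changes of -0.16 for Ramp1, -0.22 for Ramp2 and -0.31 for Ramp3. The related receptor Calcrl had -0.04, at 35.3 ± 3.44 RPM in knockouts and 36.3 ± 2.20 RPM in controls. Calca, which encodes calcitonin and the peptide CGRP, was at 7.50 ± 0.326 RPM in knockouts and 6.66 ± 0.330 RPM in controls.

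Oscar, a costimulatory receptor that pairs with the ITAM adaptor FcRgamma, was not called. Oscar (chromosome 7, 3609813 to 3616157) was at 7.54, 8.22 and 5.62 RPM in knockouts and at 8.59, 7.85 and 10.3 RPM in controls. Knockout replicate 2 lay above control replicate 2, and the log2 fold change was -0.29 ± 0.16 (SE; limma, adjusted p = 0.232). Its 95% interval was -0.63 to 0.05.

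Nfatc1, the master transcription factor of osteoclasts, was higher in every knockout library but was called in only 4 of the 16 alternatives. Nfatc1 (chromosome 18, 80606205 to 80713071) was at 137, 125 and 139 RPM in knockouts and at 108, 116 and 121 RPM in controls. The lowest knockout value lay just above the highest control value. The means were 133.7 ± 7.21 and 115.1 ± 6.74 RPM, a log2 fold change of 0.22 ± 0.08 (SE), which missed the threshold with the deposited scaling (limma, adjusted p = 0.0770). It passed with TMM factors (0.26, adjusted p = 0.0387), median-of-ratios factors (0.28, 0.0314), edgeR (0.27, 0.0360) and DESeq2 (0.28, 0.0228). In the other 12 alternatives it did not pass. The limma adjusted p was 0.183 without the variance trend and 0.248, the highest, without control replicate 1. Set against Ctsk within each library, Nfatc1 gave ratios of 4.21, 3.41 and 3.62 in knockouts and 3.03, 3.49 and 3.66 in controls, which overlapped (exact permutation p = 0.5).

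The 2 fusion genes among the 10 were not called. Dcstamp (chromosome 15, 39745930 to 39760938) was at 9.74, 12.5 and 13.6 RPM in knockouts and at 9.79, 10.8 and 12.4 RPM in controls, and the ranges lay over each other. Its log2 fold change was 0.10 ± 0.15 (SE; limma, adjusted p = 0.691), with a 95% interval of -0.21 to 0.41. Ocstamp (chromosome 2, 165393760 to 165400405) was at 16.3, 17.8 and 14.6 RPM in knockouts and at 19.7, 19.0 and 19.7 RPM in controls. All knockout libraries of Ocstamp were lower, yet the log2 fold change of -0.25 ± 0.12 (SE) did not pass (limma, adjusted p = 0.166). The Dcstamp to Ctsk ratio was 0.331 ± 0.0289 in knockouts and 0.325 ± 0.0497 in controls (SD, n = 3 each; exact permutation p = 0.9).

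**Figure D3:**
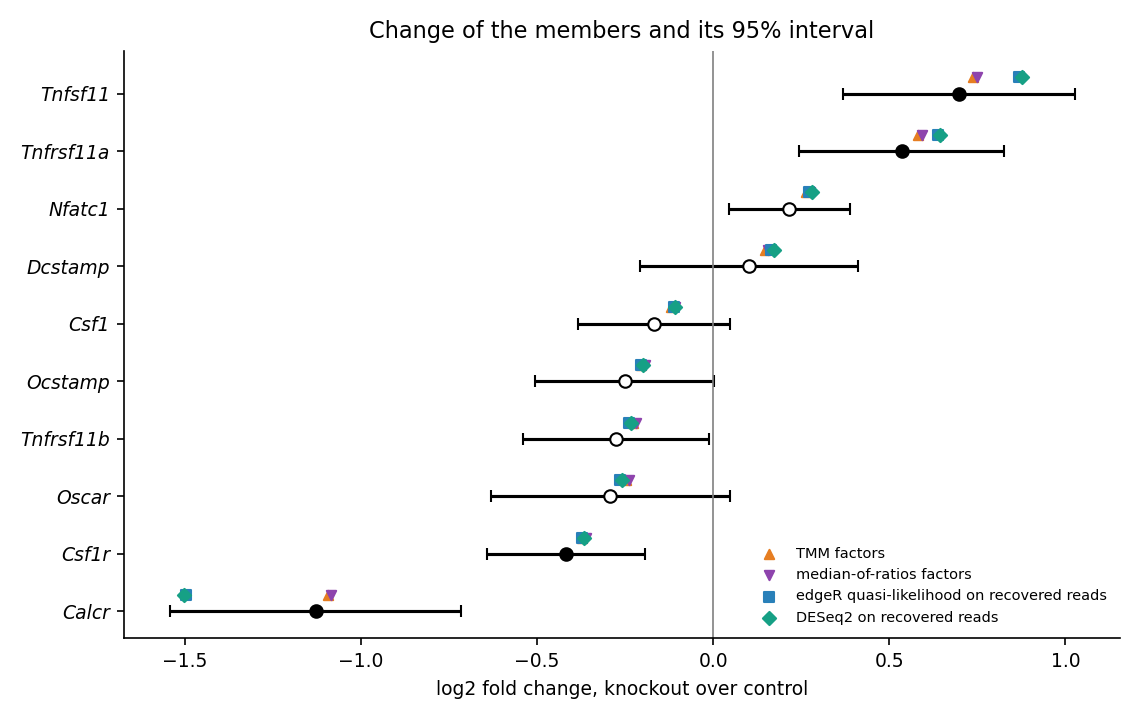
Log2 fold change of knockout over control for the 10 genes on log2(RPM + 1), with its 95% interval before adjustment (black), filled where the limma adjusted p was under 0.05, and the estimates under 4 other scalings or tests (coloured). Tnfsf11 and Tnfrsf11a lie right of 0 and Csf1r and Calcr left of it, and the count tests put Calcr near -1.50.

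The spread between replicates differed among the 10 genes. The coefficient of variation within a group was 19.1% in knockouts and 17.6% in controls for Calcr, which had the fewest reads. For Nfatc1, with 1145 to 1620 reads in knockout libraries, it was 5.39% in knockouts and 5.86% in controls. Ocstamp was tighter in controls, 2.09%, than in knockouts, 9.67%.

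By distance between mean-centred log2(RPM + 1) values over the 6 libraries, the tested genes most like Tnfsf11 included Plau (distance 0.13) and Slc25a37 (0.14). Plau encodes the protease urokinase, and was at 47.3, 40.0 and 44.5 RPM in knockouts and 27.4, 29.5 and 24.1 RPM in controls. Nearest to Calcr were Eif5a (0.39), Smpd3 (0.41) and Slc13a5 (0.42), where Smpd3 encodes a sphingomyelinase needed for mineralization and Slc13a5 a citrate transporter. The 3 nearest to Tnfrsf11a were Slc7a11 (0.14), Apoc1 (0.16) and Pts (0.18), and to Csf1r Rpp40 (0.03), Tex9 (0.07) and Ttc21b (0.08). With only 6 libraries in 2 groups, such likeness mostly restates the difference between groups.

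The wider pathway was read from lists of genes by role. The share called was 15.8% for RANK signalling, 18.8% for the CSF1 receptor list, 20% for the ITAM list and 16.7% for the AP-1 list, near the 16.7% of all amplicons, so these counts are not a result about the lists. Downstream of RANK, 2 of 19 tested genes were higher and 1 lower: Map3k7 (TAK1, log2 fold change 0.30) and Nfkb2 (0.32) rose, and the kinase gene Ikbkb fell (-0.48). With median-of-ratios factors the RANK list had 4 higher and 1 lower. Traf6, the adaptor that binds RANK, was not called, at 41.2 ± 1.21 RPM in knockouts and 34.9 ± 2.25 RPM in controls (limma, adjusted p = 0.108). Its groups did not overlap. Other uncalled genes of this list without overlap were Relb (0.35), Src (0.23) and Tab2 (0.12), which were higher. Chuk (-0.26) and Traf2 (-0.25), likewise uncalled and without overlap, were lower. Among CSF1 receptor signalling and precursor factors 2 of 16 were higher and 1 lower: Akt1 (0.30) and Spi1 (PU.1, 0.37) rose, and Tfe3, a relative of Mitf, fell (-0.44). The call on Tfe3 ended with TMM factors, median-of-ratios factors, edgeR and DESeq2 (adjusted p of 0.0601 to 0.126). Il34, the other ligand of CSF1R, was at 1.61 ± 0.227 RPM in knockouts and 1.05 ± 0.282 RPM in controls. It was not called (limma, adjusted p = 0.300), though its groups did not overlap. The same held for Pik3r1, which was higher (0.23), and Bcl2, which was lower (-0.19).

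Among ITAM receptors and calcium signalling, which act beside OSCAR, 2 of 15 were higher, Btk (0.67) and the adaptor Lcp2 (0.45), and 1 lower, Trem2 (-0.75). The ITAM adaptors Tyrobp (0.19) and Fcer1g (0.12) were not called (limma, adjusted p of 0.140 and 0.390). For both, every knockout library lay above every control. The AP-1 partners of NFATc1 included 2 higher and 0 lower of 12, Fos (0.38) and Jun (0.26). Of 13 repressors of osteoclast differentiation 4 were higher and 1 lower, a share called of 38.5%. Irf8, which holds NFATc1 in check, was at 17.5 ± 2.14 RPM in knockouts and 9.65 ± 0.394 RPM in controls (limma, log2 fold change 0.79, adjusted p = 0.000344). Tnfaip3 (0.70), Id2 (0.42) and Id3 (0.25) rose with it, and Bcl6 fell (-0.69). Irf8 and Tnfaip3 are also interferon and NF-kB response genes.

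For fusion and migration 4 of 16 were higher and 2 lower, a share called of 37.5%. The chemokine gene Ccl9 was at 69.9 ± 6.47 RPM in knockouts and 33.5 ± 4.32 RPM in controls (log2 fold change 1.04), and its receptor gene Ccr1 rose as well (0.42). Atp6v0d2 (0.41) and Cd9 (0.24) were the remaining higher genes, and Adam12 (-0.59) and Cd47 (-0.42) fell. Of 18 genes of resorption itself 1 was higher (2 with TMM factors), the gelatinase gene Mmp9 at 671 ± 22.3 RPM in knockouts and 411 ± 13.0 RPM in controls, and none was lower. The share called was 5.56%, against 16.7% of all amplicons, and 11.1% against 15.2% with TMM factors. With so few calls, this count is not a result about the list. Acp5, which encodes the osteoclast phosphatase TRAP, was at 280.5 ± 15.03 RPM in knockouts and 254.8 ± 23.2 RPM in controls and was not called (limma, adjusted p = 0.241). The summed level of this list was 2018 to 2067 RPM in knockouts and 1623 to 1738 RPM in controls. Without Mmp9, left out after its value was seen, it was 1354 to 1404 RPM in knockouts and 1210 to 1316 RPM in controls.

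The medians of these lists on the log2 scale were -0.04 (RANK, 0.01 with TMM factors), 0.05 (CSF1 receptor), 0.12 (ITAM), 0.17 (AP-1) and 0.17 (repressors). Those of the other lists were 0.19 (fusion), 0.12 (resorption), -0.16 (calcitonin receptor family) and -0.08 (signals around RANKL and OPG). Beside these, the median was -0.06 for all genes tested and -0.21 for the 10 genes. Of the 22 pathway genes named by rule, 11 were called under every alternative: Lcp2, Fos, Irf8, Tnfaip3, Bcl6, Ccl9, Adam12, Ccr1, Mmp9, Pth1r and Osmr. With no filter on low values 10 of the 22 calls ended, those of Ikbkb, Nfkb2, Map3k7, Tfe3, Spi1, Trem2, Btk, Jun, Id2 and Cd47 (limma, adjusted p of 0.0577 to 0.103). Without the variance trend 7 ended, those of Ikbkb, Nfkb2, Map3k7, Akt1, Jun, Id2 and Cd47 (0.0652 to 0.150). Without control replicate 1 the calls of Ikbkb, Nfkb2, Map3k7, Tfe3, Spi1, Trem2, Btk, Jun and Cd47 ended (limma, adjusted p of 0.0624 to 0.175). Without control replicate 2 those of Nfkb2, Tfe3, Spi1, Jun, Id2 and Cd47 ended (0.0546 to 0.132), and without control replicate 3 those of Nfkb2, Map3k7, Tfe3 and Spi1 (0.0566 to 0.1003). Without knockout replicate 2 those of Nfkb2, Map3k7, Tfe3, Spi1, Btk, Jun, Id2 and Cd47 ended (0.0598 to 0.128). Without knockout replicate 1 those of Nfkb2, Map3k7, Spi1 and Trem2 ended (0.0656 to 0.125), and without knockout replicate 3 those of Ikbkb, Tfe3, Jun and Cd47 (0.0518 to 0.102).

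**Figure D4:**
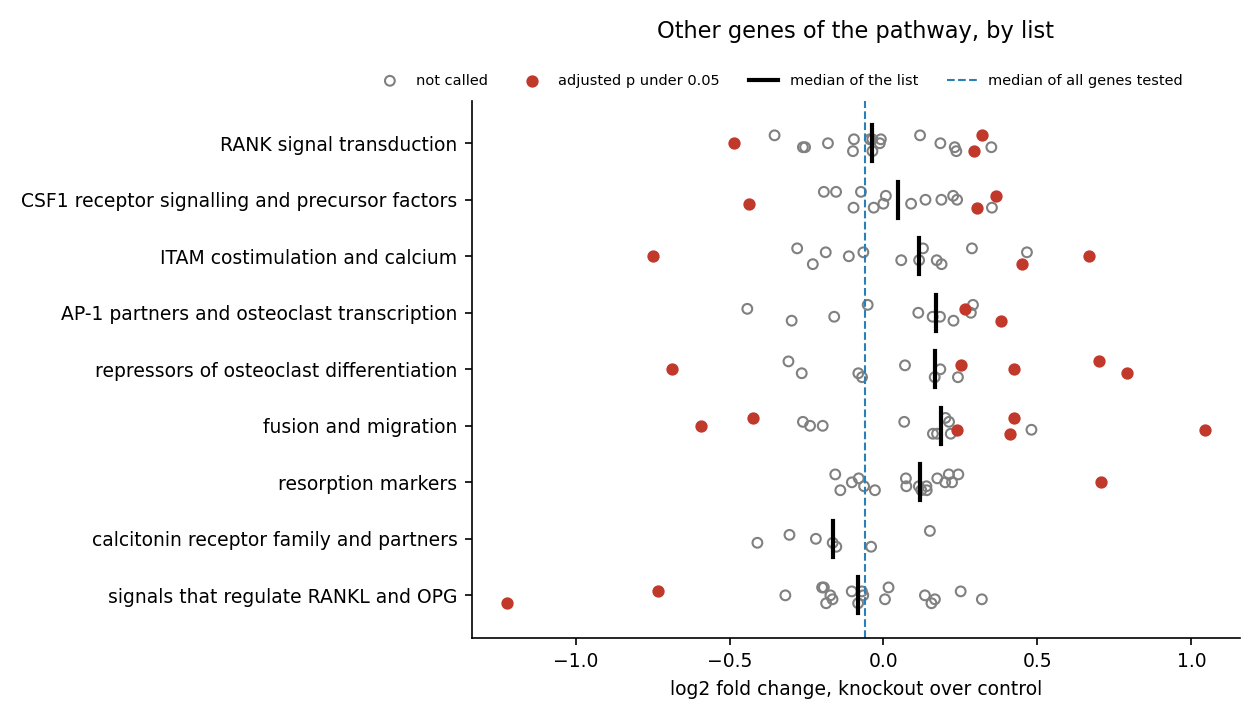
Log2 fold change of knockout over control for each tested gene of 9 pathway lists, with called genes filled, the median of each list as a black bar and the median of all genes tested (-0.06) as a dashed line. Ccl9 lies farthest right at 1.04 and Pth1r farthest left at -1.22.

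The mesenchymal cells that make RANKL and osteoprotegerin were also read through their markers. Of 19 tested genes listed for signals around RANKL and osteoprotegerin, receptors included, 0 were higher and 2 lower. The share called was 10.5%, against 16.7% of all amplicons, so this count is not a result about the list. Pth1r, the receptor through which parathyroid hormone raises RANKL, was at 25.8 ± 4.98 RPM in knockouts and 61.2 ± 7.81 RPM in controls (limma, log2 fold change -1.22), and the oncostatin M receptor gene Osmr fell too (-0.73). Tnfsf11 was higher in the same libraries in which these receptor genes were lower. The vitamin D receptor gene Vdr was not called, at 22.6 ± 1.60 RPM in knockouts and 23.8 ± 2.98 RPM in controls.

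Osteoblast markers were lower in 6 of 9 tested (5 with TMM factors), with a summed level of 47369 to 52054 RPM in knockouts and 53008 to 56652 RPM in controls. Pth1r is also among these 6. Col1a1 had the largest RPM of the list and weighs most in its sum, and it was not called (limma, adjusted p = 0.698). Ibsp, the bone sialoprotein gene, was at 2097 ± 66.9 RPM in knockouts and 4328 ± 319 RPM in controls, and Spp1, the osteopontin gene, at 4509 ± 58.5 RPM in knockouts and 5417 ± 484 RPM in controls. The call on Spp1 was lost in 8 of 16 alternatives. Hypertrophic chondrocyte markers, from cells known to express RANKL, were lower in 4 of 5 tested and summed to 661 to 726 RPM in knockouts and 976 to 1001 RPM in controls. Mmp13 had the largest RPM of this list and weighs most in its sum. Col10a1 was not called, at 85.1 ± 0.817 RPM in knockouts and 96.9 ± 9.89 RPM in controls, with overlapping groups (limma, adjusted p = 0.176). Osteocyte markers summed to 379 to 407 RPM in knockouts and 458 to 486 RPM in controls. Of 5 tested, 1 was higher, Fam20c (0.48), and 2 were lower, Dmp1 and Phex (2 higher and 2 lower with TMM or median-of-ratios factors). Sost was higher in every knockout library than in any control but was not called (0.45, limma adjusted p = 0.0555). Dmp1 had the largest RPM of the list and weighs most in its sum. The markers of these RANKL-making cells were thus lower in sum where Tnfsf11 was higher, though not every marker fell. What part each cell type had in the value of Tnfsf11 was not tested.

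Lymphoid cells, another source of RANKL, were near the limit of detection. The 7 lymphoid markers in the table summed to 1.33 to 2.08 RPM in knockouts and 1.07 to 2.32 RPM in controls, and none passed the filter. Endothelial markers summed to 610 to 648 RPM in knockouts and 609 to 656 RPM in controls, with 0 higher and 2 lower of 5, Tek and Cdh5 (1 higher and 2 lower with TMM factors, 1 and 1 with median-of-ratios factors). The call on Cdh5 was lost in 6 of 16 alternatives. Chondrocyte markers were lower in 5 of 8 (3 with TMM factors), skeletal muscle markers in 3 of 9, and erythroid markers were higher in 1 of 2 tested. That erythroid gene, Alas2, was at 64.4 ± 1.92 RPM in knockouts and 53.2 ± 4.62 RPM in controls. Its call was lost in 8 of 16 alternatives. Alas2 had the largest RPM of the erythroid list and weighs most in its sum. Of 5 epidermal markers, 2 were tested, Lor and Krt1, and both were higher. Krt1 was at 2.67 RPM in knockouts and 0.589 RPM in controls on average. It passed the filter only through the knockouts, so that count is not a result about the list. Epidermal markers summed to 13.0 to 16.8 RPM in knockouts and 3.87 to 4.76 RPM in controls.

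**Figure D5:**
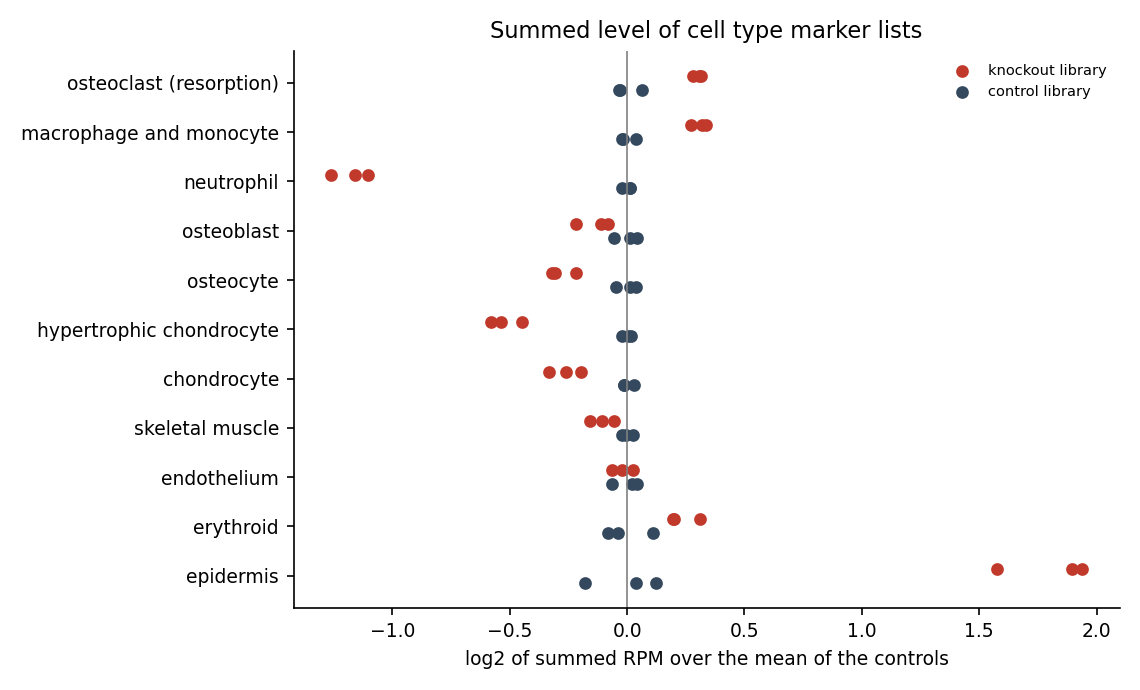
Summed RPM of each cell type marker list except the lymphoid list in each library, as the log2 ratio to the mean of the 3 controls, for knockout (red, upper row of each pair) and control (dark, lower row) libraries. With the deposited scaling, osteoclast, macrophage, erythroid and epidermal sums lie right of the controls. Neutrophil, osteoblast, osteocyte, cartilage and muscle sums lie left of them. Divided by median-of-ratios factors, the osteoblast and muscle sums of the groups overlap. Endothelial sums overlap.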

How the data were processed

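RNA of the humerus shaft was made into Ion AmpliSeq mouse transcriptome libraries, per the labels' protocols. The authors deposited RPM values, reads per amplicon scaled to a common total per library, for 3 knockout and 3 control samples. The sources used here name no aligner, counter or build. Each column held whole multiples of 1 step, and 100% of nonzero values gave whole reads to within 0.1 read, at 0.0748 to 0.110 RPM per read. Reads without molecular identifiers cover counting error only. Gene positions are those of GENCODE M21 on GRCm38, matched by symbol; promoters are from RefSeq.

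Values of log2(RPM + 1) were compared for 12846 amplicons whose mean reached 1 RPM, across all genes with limma 3.58.1 (R 4.3.3, empirical Bayes with trend, two-sided, Benjamini-Hochberg, threshold 0.05). Fold changes on this scale understate those of low genes. Counts of recovered reads were tested with edgeR 4.0.16 and DESeq2 1.42.0 as alternatives. edgeR called 1974 amplicons and DESeq2 1773, against 2142 with limma. Ratios were tested with exact permutation tests in scipy 1.17.1. The fitting code was tested on simulated data. Whether replicates are separate embryos is not stated, so p-values measure only how these samples vary, perhaps for technical reasons. Within a group, libraries differed beyond counting noise (chi-square of 4.54 to 7.80 for each degree of freedom).

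The 10 genes, the lists and the ratios were chosen with earlier results of these data known. Named pathway genes are those called in each list, at most 4 by absolute log2 fold change. Named markers are the called markers of highest mean, at most 2 a list. Unlisted values given for contrast (Col1a1, Acta1, Traf6, Relb, Src, Tab2, Chuk, Traf2, Il34, Pik3r1, Bcl2, Crcp, Ramp1, Ramp2, Ramp3, Calcrl, Calca, Acp5, Vdr, C1qa, Tyrobp, Fcer1g, Id3, Atp6v0d2, Cd9, Col10a1, Fam20c, Sost and the macrophage markers beside Lyz2 and Cd68) were picked after the values were seen. For each called gene of the 10, the 3 tested genes nearest by distance were named, except 1 that is not reported here.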

Additional observations from a re-analysis of the deposited data

Results flagged for a closer look

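Some listed genes fell under the filter of a mean of 1 RPM, so the comparison did not use them, yet had more RPM in every knockout library than in any control. Cd3g, a T cell receptor component, had 5, 9 and 5 reads in knockout libraries, 19 in total, and 3, 3 and 2 in control libraries. Fgf23, an osteocyte hormone, had 16, 10 and 10 reads in knockout libraries, 36 in total, and 7, 7 and 10 in control libraries. Krt10, an epidermal keratin, had 13, 13 and 10 reads in knockout libraries, 36 in total, and 6, 4 and 6 in control libraries. Other listed genes under the filter had less RPM in every knockout library than in any control, on few reads. Mepe, an osteocyte gene, had 0, 1 and 1 reads in knockout libraries and 8, 7 and 14 in control libraries. Il6 had 0, 0 and 1 reads in knockout libraries and 5, 3 and 2 in control libraries, and Adm2 had 0, 0 and 1 in knockout libraries and 6, 3 and 2 in control libraries. Wnt16 had 0, 1 and 2 reads in knockout libraries and 4, 3 and 4 in control libraries, and Klf1 had 0 in every knockout library and 2, 1 and 2 in control libraries. Rhag, which was higher, had 2, 3 and 2 reads in knockout libraries and 0, 2 and 2 in control libraries.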

How the results depend on the processing

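With 16 alternatives, each of the 10 genes kept its direction wherever it was tested. Tnfsf11 stayed called in all of them and Calcr in all 15 that tested it. Of the 10 genes, 1 was called higher without the filter on low values, and 1 was called lower with the filter at a mean of 5 RPM and without the variance trend. With a library left out, the called higher genes among the 10 were 1 to 2 and the called lower ones 1 to 2. Nfatc1 joined the called higher genes with TMM, median-of-ratios, edgeR and DESeq2, making 3.

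Over all amplicons, 733 were higher and 1409 lower. Without the trend these were 361 and 634, without the filter 523 and 869. The lower count was 894 with median-of-ratios factors, 922 with edgeR and 775 with DESeq2. Leaving out a library gave 444 to 705 higher and 729 to 1314 lower. The ratio of Dcstamp to Ctsk was 0.03 on the log2 scale with all 6 libraries, -0.0808 without control replicate 1 and -0.0188 without knockout replicate 3, within a range of -0.0808 to 0.141 over libraries left out. The causes were not tested, except that fewer samples or more amplicons enter some of these fits.

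Replicate numbers did not clearly pair the samples: deviations of same-numbered libraries correlated at 0.01, -0.02 and 0.11. The last was the highest of all pairs, yet not every sample correlated best with its own number. Whether same-numbered libraries shared a batch was not tested. With the replicate number as a block, 836 were higher and 1626 lower, and 2 and 2 of the 10 genes. That made 2462 calls, more than the 2142 without the block. Depth limits Calcr most, at 11 to 21 reads per knockout library.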
